A study of Rattus norvegicus with 24 samples.

Results

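The 5 genes examined here mark cholinergic neurons, the nerve cells that make and release acetylcholine. They are Chat, which encodes the enzyme that synthesizes acetylcholine, Slc18a3, which encodes the vesicular acetylcholine transporter, Slc5a7, which encodes the high-affinity choline transporter, Ache, which encodes acetylcholinesterase, and Ngfr, which encodes the p75 neurotrophin receptor. The members are defined by gene name, and the set was proposed with earlier results of these data known. Of the 5 genes, 3 (Slc18a3, Slc5a7 and Ngfr) had 1 probe each on the array, among 13337 named genes in all, and each of these 3 probes was detected on all 24 arrays, so that all 3 passed the filter on low values. No probe carried the name Chat or Ache in the annotation used, and these genes are not analysed here.

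The mRNA levels were measured with Illumina BeadChips, 1-colour arrays on which the brightness of a probe reports the amount of a transcript, in the nucleus accumbens (NAc) of male Sprague-Dawley rats. Rats were given methamphetamine (METH, 10 mg/kg) or saline, were left for a month, and were then given METH at 2.5 mg/kg or saline, with tissue taken 2 h after that last injection. The 4 groups were saline then saline (SS, 4 arrays), saline then METH (SM, 6 arrays), METH then saline (MS, 7 arrays) and METH then METH (MM, 7 arrays). MS against SS asks what remained of the first METH injection a month later, SM against SS asks what a low dose did within hours, and MM sets the second METH injection on top of the first. All comparisons with SS share its 4 arrays. Which rat an array stands for is not in the labels, and p-values therefore measure the spread between these samples.

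Acetylcholine is made from choline and an acetyl group in the nerve terminal, is loaded into vesicles, and is split in the synaptic cleft by acetylcholinesterase. Slc5a7 then carries the choline back into the terminal, the step that limits the rate of synthesis. In the NAc, acetylcholine comes mainly from a sparse class of large interneurons that act on the dopamine terminals and on the medium spiny neurons, the projection neurons that make up most of the tissue. The basal forebrain, which lies just below and behind the NAc, holds a second population of cholinergic neurons that project to cortex, hippocampus and amygdala. In the adult rat brain, Slc18a3 and Slc5a7 mark both populations, whereas Ngfr is known mainly from the basal forebrain neurons and is scarce in striatal cholinergic interneurons.

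The arrays were alike in the share of probes detected but not in how well they fit their group. The median intensity of an array was between 10 and 23, and 49.3% to 53.8% of probes were detected. The arrays lay on 2 slides, each of which held arrays of all 4 groups. In a weighting of the arrays by how well they fit their group over all probes, the weights ran from 0.25 to 1.77. SS replicate 1, MS replicate 1 and SM replicate 3 had weights under 0.5 (0.34, 0.32 and 0.25). All 3 lay on slide 1, and results are also given without them. All 13 measured markers of medium spiny neurons were detected on every array, the cells that the striatal label implies. Their summed level was unequal between groups, with 55784 to 62213 on the SS arrays, 33560 to 44165 in SM, 31217 to 41065 in MS and 31046 to 37943 in MM. In bulk tissue, fewer cells of a type and less RNA per cell cannot be told apart.

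Slc18a3, the transporter that fills synaptic vesicles with acetylcholine, showed the smallest differences of the 3 genes. Its normalized log2 intensity was 6.91, 7.10, 6.99 and 7.29 on SS replicates 1 to 4 (mean 7.07 ± 0.16, SD, n = 4). The lowest, median and highest values were 6.90, 7.20 and 7.50 in SM (mean 7.21 ± 0.24, n = 6), and 7.06, 7.44 and 7.57 in MS (mean 7.37 ± 0.19, n = 7). In MM they were 7.24, 7.53 and 7.70 (mean 7.49 ± 0.15, n = 7). The groups overlapped, with 2 of 6 SM, 5 of 7 MS and 6 of 7 MM arrays above the highest SS array. SS replicate 4 was the highest of its group, and SM replicate 5, at 6.90, was the lowest of all 24 arrays. The deposited intensities, before any scaling between arrays, were 107 ± 17.5 in SS, 145 ± 39.4 in SM, 149 ± 20.7 in MS and 162 ± 27.4 in MM.

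Slc5a7, which returns choline to the terminal, differed more between groups and also among the arrays of a group. Its log2 intensity was 7.49, 6.76, 6.53 and 6.24 on SS replicates 1 to 4 (mean 6.76 ± 0.54). SS replicate 1 stood well above the other 3. The lowest, median and highest values were 7.07, 7.28 and 7.94 in SM (7.40 ± 0.35), and 6.95, 7.67 and 8.33 in MS (7.65 ± 0.41). In MM they were 7.36, 7.87 and 8.22 (7.84 ± 0.26). With SS replicate 1 in the group, 2 of 6 SM, 5 of 7 MS and 6 of 7 MM arrays exceeded every SS array, while all SM, MS and MM arrays lay above the other 3 SS arrays. The deposited intensities were 98.9 ± 77.6 in SS, 182 ± 105 in SM, 192 ± 72.2 in MS and 217 ± 62.6 in MM.

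Ngfr, the p75 receptor that binds all neurotrophins, separated the SS and MM groups. Its log2 intensity was 5.92, 7.00, 6.58 and 6.68 on SS replicates 1 to 4 (mean 6.54 ± 0.45). The lowest, median and highest values were 6.26, 7.18 and 7.35 in SM (7.05 ± 0.41), and 6.90, 7.40 and 7.92 in MS (7.40 ± 0.30). In MM they were 7.31, 7.55 and 7.77 (7.54 ± 0.17). All 7 MM arrays lay above every SS array, as did 6 of 7 MS arrays and 4 of 6 SM arrays. SS replicate 1, which was high for Slc5a7, was the lowest of all 24 arrays for Ngfr, and SM replicate 2 was the lowest outside SS. The deposited intensities were 68.9 ± 16.8 in SS, 133 ± 57.9 in SM, 156 ± 49.7 in MS and 169 ± 33.5 in MM.

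**Figure D1:**
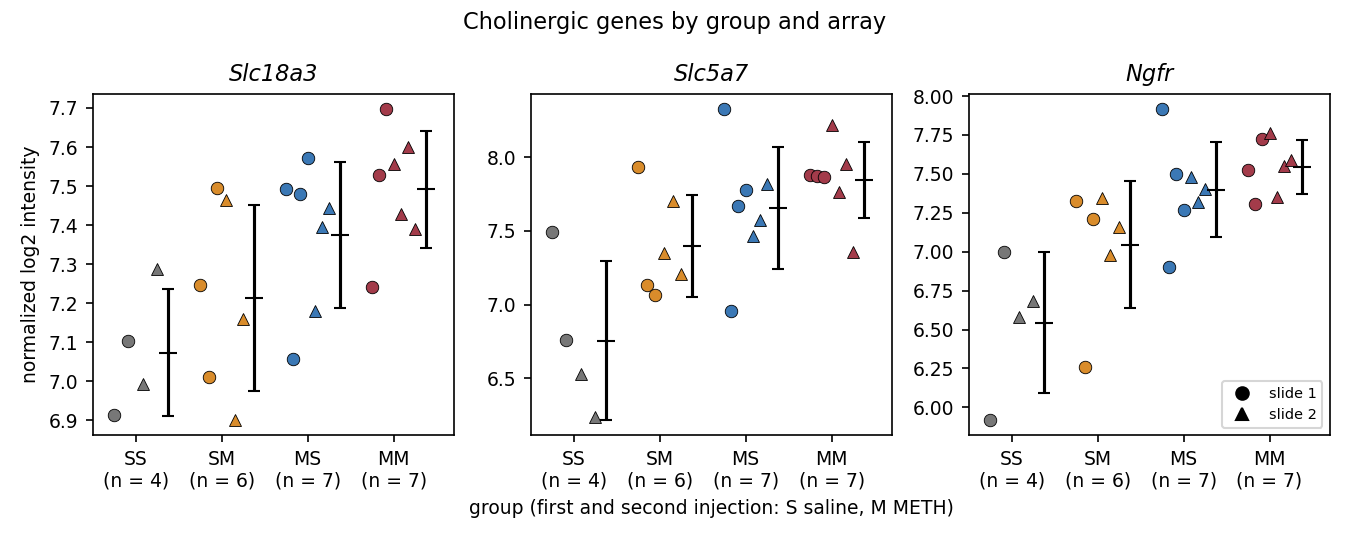
Normalized log2 intensity (vertical axes, each with its own range) of Slc18a3, Slc5a7 and Ngfr on the 24 arrays by group, with circles for slide 1 and triangles for slide 2. The black bar and whiskers give the group mean ± SD. For Ngfr, all 7 MM arrays lie above the 4 SS arrays, and for Slc5a7 one slide 1 array of SS, at 7.49, lies far above the other 3.

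In the rat assembly GRCr8, Slc18a3 lies within the Chat gene on the same strand, an arrangement known as the cholinergic locus, and the 300-base promoter windows of the 2 genes (250 bases before to 50 after the start) are 302 bases apart on chromosome 16. Slc5a7 lies on chromosome 9. The promoters of the pair of transporter genes are shown because these are the 2 measured genes that build the acetylcholine supply and have an entry in the RefSeq table used. They are printed 5′ to 3′ on the gene's own strand, which is the minus strand for both, from chr16:7722765-7723064 and chr9:7953460-7953759 of GRCr8. Capitals mark GGGCGG (the GC box) and CGTCA (the core of a cyclic AMP response element), on either strand.

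Slc18a3: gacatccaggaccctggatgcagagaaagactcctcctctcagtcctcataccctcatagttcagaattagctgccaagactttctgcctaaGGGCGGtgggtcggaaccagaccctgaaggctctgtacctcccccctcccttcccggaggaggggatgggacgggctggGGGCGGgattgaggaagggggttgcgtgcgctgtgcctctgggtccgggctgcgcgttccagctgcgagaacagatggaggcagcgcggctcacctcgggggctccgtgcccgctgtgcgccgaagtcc

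Slc5a7: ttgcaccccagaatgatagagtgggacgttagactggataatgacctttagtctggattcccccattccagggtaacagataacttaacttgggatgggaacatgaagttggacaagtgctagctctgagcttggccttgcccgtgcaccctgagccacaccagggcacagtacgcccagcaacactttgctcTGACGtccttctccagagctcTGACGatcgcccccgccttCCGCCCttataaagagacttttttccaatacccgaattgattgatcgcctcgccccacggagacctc

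The Slc18a3 window held 2 GC boxes, starting 158 and 79 bases before the start site, and no CGTCA. The Slc5a7 window held 2 copies of CGTCA, 57 and 36 bases before the start, and 1 GC box at 17 bases before it. Neither held TAATTA, a core bound by LIM homeodomain factors. Among 33469 rat promoter windows of the same length, searched on both strands, 33.1% held GGGCGG, 21.2% held CGTCA and 5.36% held TAATTA. GC made up 64.3% of the Slc18a3 window and 53% of the Slc5a7 window, against a median of 51.7%. A match is a description of the letters and not evidence of binding.

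A month after METH (MS against SS), the mRNA levels of Slc5a7 and Ngfr were higher and that of Slc18a3 did not pass the test. Slc5a7 was higher by 0.90 ± 0.21 on the log2 scale (SE; 1.86-fold, adjusted p = 0.00358, limma with Benjamini-Hochberg adjustment over 12943 probes). Ngfr was higher by 0.85 ± 0.19 (1.81-fold, adjusted p = 0.00171). Slc18a3 differed by 0.30 ± 0.11 (1.23-fold, 95% interval 0.07 to 0.54, adjusted p = 0.0692). Thus 2 of the 3 measured genes passed the test at an adjusted p under 0.05, both upward, where 8.81% of all probes tested were called higher and 9.24% lower. The differences lay at the 99.3, 99 and 90.2 percentiles of all probes for Slc5a7, Ngfr and Slc18a3, and the median of all probes was 0.00359.

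The 2 calls were kept without the 3 arrays of low weight, with Slc5a7 higher by 1.03 (adjusted p = 2.79e-04) and Ngfr by 0.56 (adjusted p = 0.0233). On slide 2 alone, Slc5a7 was higher by 1.24 (adjusted p = 9.36e-04) and Ngfr by 0.77 (adjusted p = 9.53e-04). On slide 1 alone neither passed, at 0.55 (adjusted p = 0.496) and 0.94 (adjusted p = 0.182). Each slide held 2 SS arrays, and slide 1 held the 3 arrays of low weight. Slc18a3 differed by 0.39 on slide 1 and 0.20 on slide 2 (adjusted p = 0.331 and 0.410). With slide as a block in the fit the 3 differences were 0.89 for Slc5a7, 0.86 for Ngfr and 0.30 for Slc18a3. Slc18a3 crossed the threshold without MS replicate 2 (0.35, adjusted p = 0.0270) and without SS replicate 4 (0.37, adjusted p = 0.0444).

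After the low dose given alone (SM against SS), none of the 3 genes passed the test. The differences were 0.64 ± 0.22 for Slc5a7 (1.56-fold, 95% interval 0.19 to 1.10, adjusted p = 0.0529), 0.50 ± 0.19 for Ngfr (1.42-fold, 0.10 to 0.90, adjusted p = 0.0887) and 0.14 ± 0.12 for Slc18a3 (1.10-fold, -0.10 to 0.38, adjusted p = 0.495). This count of 0 members stood beside 6.08% of all probes higher and 7.59% lower, and 2 of the 3 genes had an unadjusted p under 0.05 (0.00736 for Slc5a7 and 0.0155 for Ngfr). The Slc5a7 difference passed without SS replicate 1 (0.89, adjusted p = 0.00564), and the Ngfr difference passed without SM replicate 2 (0.66, adjusted p = 0.0105) or without SS replicate 2 (0.65, adjusted p = 0.0377) and shrank to 0.29 without SS replicate 1 (adjusted p = 0.314). The Slc5a7 difference also passed without SM replicate 2 (0.70, adjusted p = 0.0477), SM replicate 3 (0.71, adjusted p = 0.0306), MS replicate 1 (0.64, adjusted p = 0.0339), MS replicate 2 (0.64, adjusted p = 0.0345) or MM replicate 7 (0.64, adjusted p = 0.0474), and without the 3 arrays of low weight (0.96, adjusted p = 8.17e-04), where Ngfr did not pass (0.26, adjusted p = 0.305). On slide 2 alone both passed, Slc5a7 at 1.04 (adjusted p = 0.00306) and Ngfr at 0.53 (adjusted p = 0.0107), and on slide 1 alone neither did, at 0.25 (adjusted p = 0.866) and 0.47 (adjusted p = 0.708).

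In rats given METH at both injections (MM against SS), all 3 measured genes were higher. Slc5a7 was higher by 1.09 ± 0.21 (2.13-fold, adjusted p = 4.81e-04), Ngfr by 1.00 ± 0.19 (2.00-fold, adjusted p = 2.80e-04) and Slc18a3 by 0.42 ± 0.11 (1.34-fold, adjusted p = 0.00870). Among all probes tested, 11% were called higher and 11.5% lower, and 7.13% had every MM array above every SS array, as Ngfr did. All 3 calls were kept whichever single array was left out, and also without the 3 arrays of low weight (Slc5a7 1.33, Ngfr 0.79, Slc18a3 0.36). On slide 2 alone, Slc5a7 (1.44, adjusted p = 1.31e-04) and Ngfr (0.93, adjusted p = 9.88e-05) passed and Slc18a3 did not (0.35, adjusted p = 0.0874). On slide 1 alone none passed, at 0.74 for Slc5a7 (adjusted p = 0.289), 1.06 for Ngfr (adjusted p = 0.132) and 0.48 for Slc18a3 (adjusted p = 0.204).

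**Figure D2:**
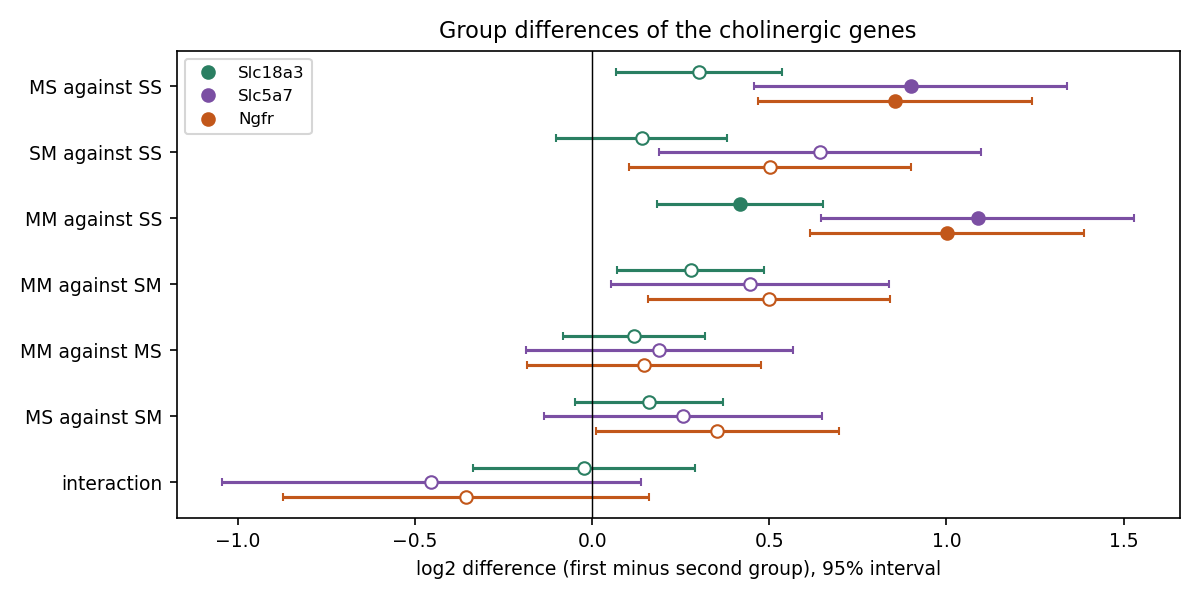
Log2 difference between group means (horizontal axis, first group minus second) of the 3 genes for the 6 pairs of groups and for the interaction, which is the effect of the second METH injection after METH less that after saline. Points are estimates from the fit to 24 arrays, whiskers are 95% intervals, and filled points have an adjusted p under 0.05, as Slc5a7 and Ngfr have in MS against SS and all 3 genes in MM against SS.

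Between the groups that had received METH, no member passed the test. MM exceeded SM by 0.50 ± 0.17 for Ngfr (adjusted p = 0.126), by 0.44 ± 0.19 for Slc5a7 (adjusted p = 0.250) and by 0.28 ± 0.10 for Slc18a3 (adjusted p = 0.166). None of the 3 passed, where 0.641% of all probes were called higher and 0.641% lower. MM and MS, which differ by the second injection after a first METH dose, differed by 0.15 for Ngfr (95% interval -0.18 to 0.48, adjusted p = 0.762), 0.19 for Slc5a7 (-0.19 to 0.57, adjusted p = 0.723) and 0.12 for Slc18a3 (-0.08 to 0.32, adjusted p = 0.660). No member was called there either, beside 0.657% of probes higher and 0.471% lower. MS exceeded SM by 0.35 for Ngfr, 0.26 for Slc5a7 and 0.16 for Slc18a3 (adjusted p = 0.522, 0.793 and 0.720), with no member called beside 0.201% of probes higher and 0.44% lower. The group means of all 3 genes rank SS, SM, MS and MM from low to high, but no neighbouring groups in this order differed past the threshold for any of them.

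Whether the second METH injection acted differently after METH than after saline was read from the interaction. It was -0.45 ± 0.29 for Slc5a7 (95% interval -1.04 to 0.14, adjusted p = 0.389), -0.36 ± 0.25 for Ngfr (-0.87 to 0.16, adjusted p = 0.454) and -0.02 ± 0.15 for Slc18a3 (-0.34 to 0.29, adjusted p = 0.957). No member passed, where 4.16% of probes had a called interaction above 0 and 3.51% a called interaction below 0. The values rested on single arrays: that of Slc5a7 was -0.70 without SS replicate 1 and -0.28 without SS replicate 4, and that of Ngfr was -0.15 without SS replicate 1. By slide, Slc5a7 gave -0.06 on slide 1 and -0.83 on slide 2, and Ngfr -0.35 and -0.37. Without the 3 arrays of low weight, Slc5a7 gave -0.66 and Ngfr -0.03, and no member passed in any of these fits.

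Within groups, Slc18a3 and Ngfr varied together from array to array. After the group means were removed, their log2 values correlated with Pearson r = 0.55 over 24 arrays (permutation p = 0.0115, 0.0345 adjusted over 3 pairs) and Spearman rho = 0.57 (permutation p = 0.0076, adjusted 0.0228). Without the 2 arrays farthest from the median of Slc18a3, r was 0.50, and within slides 1 and 2 it was 0.65 and 0.57 (12 arrays each). The group values were 0.63 in SM, 0.54 in MS and 0.36 in MM.

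The correlations of Slc5a7 with the other two genes were weak over all arrays and depended on the scaling. Its r was 0.09 with Slc18a3 (permutation p = 0.69, adjusted 0.69, rho = 0.12, permutation p = 0.591, adjusted 0.641) and 0.18 with Ngfr (permutation p = 0.483, adjusted 0.69, rho = 0.11, permutation p = 0.641, adjusted 0.641). Without the 2 farthest arrays these values were -0.01 and 0.45, within slide 1 they were 0.28 and 0.33, and within slide 2 they were -0.01 and -0.03. When each array was scaled to 1 median in place of quantile normalization, r was 0.56 with Slc18a3 and 0.42 with Ngfr. Among the 7 MS arrays, r was 0.81 with Slc18a3 and 0.89 with Ngfr, and MS replicate 2 was the lowest array of its group for all 3 genes. The other groups gave lower values, with -0.29 and 0.35 in SM and 0.37 and 0.27 in MM. No value was computed for SS alone. The within-group levels of Slc5a7 moved with the leading axis of variation of all probes, which held 25% of the within-group variance, with r = 0.84 against 0.01 for Ngfr and -0.28 for Slc18a3. The direction of the axis was set to make the Slc5a7 value positive, and all 3 genes are among the probes that define it.

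**Figure D3:**
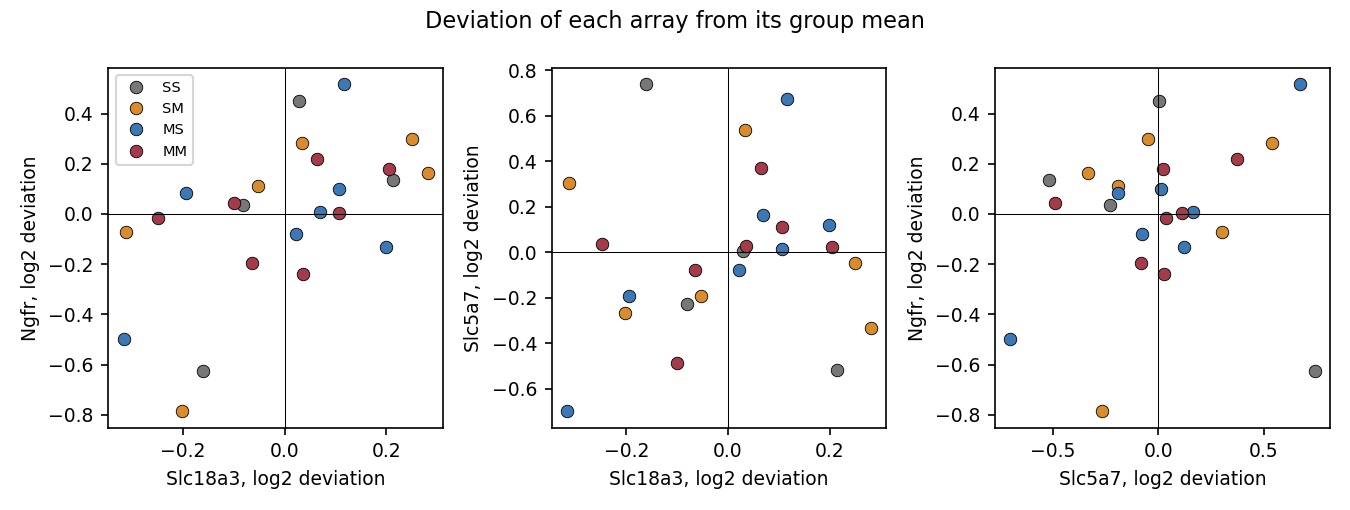
Deviation of each array from its group mean (both axes, log2) for the 3 pairs of genes, with 1 point per array coloured by group. Slc18a3 and Ngfr rise together (r = 0.55), while the points of Slc5a7 against Slc18a3 (r = 0.09) and against Ngfr (r = 0.18) are scattered.

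The genes with the most similar within-group pattern differed accordingly. For Slc18a3 they were Slc45a1 (r = 0.77 over 24 arrays), Ppcs (0.73), Lrp3 (0.71) and Itih3 (0.70), and for Ngfr they were Yipf3 (0.81), Lrp3 (0.69), Oaf (0.68) and Cdh19 (0.66). Lrp3 was in both sets. For Slc5a7 they were Sdc2 (0.90), Nptn (0.90), Eloc (0.89) and Ankrd34b (0.89). An r of 0.6 or more was reached by 1054 of 12942 other probes for Slc5a7 (8.14%), but by 42 for Slc18a3 (0.325%) and 28 for Ngfr (0.216%). These are descriptions over arrays that share slides and scaling.

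Other genes of the cholinergic pathway were read from the same fit, from lists described in the processing notes. In MS against SS, 8.81% of all probes were higher and 9.24% lower, the shares beside which the counts of each list stand. The lists were drawn up with earlier results known. Of 7 tested genes for the supply or use of choline and acetyl groups, 1 was called higher in MS than in SS and none lower (median 0.14). It was Chkb (0.22 ± 0.07, adjusted p = 0.0412), a choline kinase, which uses choline for phosphatidylcholine synthesis. This call was lost under 7 of 14 alternative settings and without any one of SS replicates 1, 2 and 4 or MS replicates 1, 3, 6 and 7 (0.16 to 0.24, adjusted p = 0.0548 to 0.198). Pcyt1b and Chka, further enzymes of phosphatidylcholine synthesis, differed by 0.18 (adjusted p = 0.160) and 0.14 (adjusted p = 0.262). Colq, a protein that anchors acetylcholinesterase, differed by 0.08 (adjusted p = 0.809) and was the single gene of hydrolysis and anchoring that was tested. Bche and Prima1, also on that list, had probes that did not pass the filter on low values. Colq alone therefore does not represent acetylcholine hydrolysis and anchoring in the NAc.

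On the side of the receptors, no gene was called higher in MS than in SS, though 1 nicotinic gene was without background correction. Of 4 tested muscarinic receptors, 2 fell. Chrm4, the inhibitory receptor abundant on medium spiny neurons of the direct pathway, fell by 0.43 ± 0.09 (adjusted p = 6.65e-04), and Chrm3 fell by 0.41 ± 0.11 (adjusted p = 0.00843), while Chrm1 differed by -0.07 (adjusted p = 0.643). Of 10 tested nicotinic subunits and accessory proteins, Chrna5, an accessory subunit, fell by 0.63 ± 0.19 (adjusted p = 0.0185), a call lost under 5 of 12 alternatives. Chrm4 lost its call under 2 of 14 alternatives, the series matrix values (-0.34, adjusted p = 0.279) and slide 1 alone (-0.38, adjusted p = 0.210). Chrm3 lost its call under 3 of 14 alternatives, among them slide 1 alone (-0.09, adjusted p = 0.841). Without SS replicate 3 neither Chrm3 (-0.27, adjusted p = 0.0744) nor Chrna5 (-0.31, adjusted p = 0.158) passed, and without SS replicate 1 Chrna5 did not (-0.57, adjusted p = 0.0529). The other 9 nicotinic genes did not pass, among them Lynx1, a brake on nicotinic receptors (0.26, adjusted p = 0.107), and Chrna3 (0.17, adjusted p = 0.162), which was detected on no SS array. In SM against SS, 2 muscarinic receptors were lower (Chrm3 and Chrm4) and no nicotinic gene was called, and in MM against SS, Chrm4 and Chrna5 were lower and Lynx1 was higher (0.47, adjusted p = 0.00298).

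Among transcription factors of forebrain cholinergic neurons, Lhx6 differed most in MS against SS. Of 4 tested factors, 4 were called higher in MS than in SS (median 0.59), 2 in SM and 2 in MM. The MS and MM counts and the median include Gbx2, which was detected on no SS array. In MS, SM and MM against SS, 8.81%, 6.08% and 11% of all probes were called higher. The MS count fell to 2 without SS replicate 2 and to 2 without SS replicate 4, when Isl1 and Zic4 lost their calls. Lhx6 was higher by 1.28 ± 0.11 (2.43-fold, adjusted p = 5.56e-09), with all 7 MS arrays above every SS array. The same separation held for Gbx2 and Zic4. The share of all probes that show it was counted for MM against SS alone, where it was 7.13%. It was not counted in MS, so the separation is a description. Lhx6 acts in the developing cholinergic and GABA neurons of the ventral forebrain and stays on in GABA interneurons, so it is no marker of cholinergic cells alone. Gbx2, needed in mice for striatal cholinergic interneurons to develop, was detected on none of 4 SS, 1 of 6 SM, 7 of 7 MS and 7 of 7 MM arrays. It thus passed the filter on low values through the groups where it is high. Its calls in MS and MM add nothing to the counts as support. Its level in MS was at least 1.26-fold above SS and in MM at least 1.29-fold above SS, taking on each SS array the lowest signal of any detected probe (or its own, if higher) as the limit. These bounds were not tested. The limma fit gave differences of 0.78 in MS and 0.82 in MM (adjusted p = 3.01e-06 and 1.15e-06), which rest on the undetected SS values. Isl1, which cholinergic interneurons share with medium spiny neurons of the direct pathway, was higher in MS by 0.35 ± 0.11 (adjusted p = 0.0238), a call lost under 4 of 14 alternatives and without SS replicate 2, 3 or 4 or MS replicate 3 (0.31 to 0.35, adjusted p = 0.0521 to 0.0683). Zic4, named here because it completes the count of 4, was higher by 0.40 ± 0.13 (adjusted p = 0.0314). That call was lost under 6 of 13 alternatives and without SS replicate 2 (0.30, adjusted p = 0.162), SS replicate 4 (0.41, adjusted p = 0.0649) or MS replicate 7 (0.38, adjusted p = 0.0574). Tacr1 and Gal, which are expressed with Chat in striatal or basal forebrain cholinergic neurons, differed by 0.11 and 0.11 (adjusted p = 0.712 and 0.828).

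Around Ngfr, the neurotrophin system did not move one way. Against SS, the MS group had 1 of 8 tested genes higher and 4 lower (median -0.19). Maged1, a protein that binds the p75 receptor, was higher by 0.36 ± 0.07 (adjusted p = 7.85e-04). Sort1 (sortilin), which forms the receptor for pro-neurotrophins together with p75, fell by 0.47 ± 0.09 (adjusted p = 6.42e-04). Lingo1, a partner of p75 in the Nogo receptor complex, fell by 0.53 ± 0.14 (adjusted p = 0.00708), and Bdnf and Rtn4r were the other two lower genes (-0.63 and -0.30, adjusted p = 0.0143 and 0.0484), named to complete the count. The count of 4 lower genes fell to 1 without SS replicate 3, when Lingo1 (-0.39, adjusted p = 0.0574), Bdnf (-0.34, adjusted p = 0.127) and Rtn4r (-0.18, adjusted p = 0.273) did not pass, and to 2 without SS replicate 4, when Bdnf (-0.60, adjusted p = 0.0510) and Rtn4r (-0.33, adjusted p = 0.0613) did not. The Rtn4r call was lost with 17 of the 24 single arrays left out and under 6 of 12 alternatives. Maged1, Sort1, Lingo1 and Bdnf each lost their calls with the series matrix values and on slide 1 alone. In SM and in MM against SS, Maged1 was higher and Sort1 was lower, and no other gene of this list passed.

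**Figure D4:**
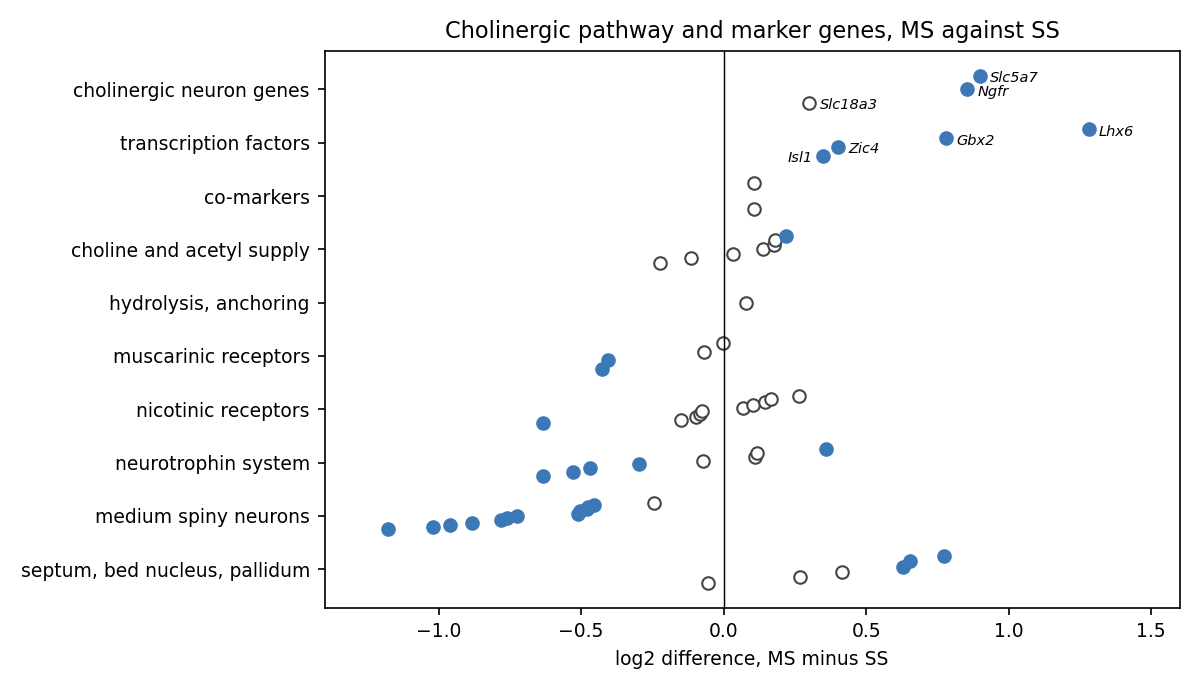
Log2 difference of MS minus SS (horizontal axis) for the tested genes of each list, 1 point per gene, with filled points at an adjusted p under 0.05. Slc5a7, Ngfr and the 4 transcription factors lie to the right of 0, and 12 of 13 markers of medium spiny neurons are filled and lie to the left.

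Markers of other cells and regions also differed between the groups, some lower and some higher. In MS against SS, 8.81% of all probes were called higher and 9.24% lower. The shares were 6.08% and 7.59% in SM and 11% and 11.5% in MM. Of the 13 medium spiny neuron markers, 12 were lower in MS than in SS (median -0.73), 10 in SM (median -0.51) and 12 in MM (median -0.74), and none was higher. With the series matrix values, the MS count was 7. Of 6 tested markers of septum, bed nucleus of the stria terminalis and pallidum, regions that border the NAc, 3 were higher in MS (median 0.52), 2 in SM and 2 in MM. This MS count was 1 with the series matrix values and 0 on slide 1 alone. The summed level of the 6 markers was 1418 to 1836 on the SS arrays, 2157 to 2695 in SM, 2266 to 2735 in MS and 2091 to 2895 in MM, so SS did not overlap any other group. Of 11 tested markers of hypothalamus and preoptic area, 8 were higher and 1 was lower in MS (median 0.95), and 6 were higher and 1 was lower in SM and in MM. The count of 8 was 3 with detection required on all 24 arrays and 4 on slide 1 alone. Over its 14 probes, this list summed to 1173 to 1601 in SS, 2146 to 2620 in SM, 2165 to 3218 in MS and 2075 to 2767 in MM. Of the 14 probes, 3 were detected on no SS array, 2 on no SM array, 3 on no MS array and 3 on no MM array. Their part in the Slc5a7, Ngfr, Slc18a3 and transcription factor results was not tested.

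Each of the other marker lists except microglia held called genes, to be set beside the shares of all probes given above. Of 4 tested choroid plexus markers, 3 were higher in MM than in SS (median 1.10), 1 was higher and 1 lower in MS, and 1 was higher in SM. Over its 6 probes this list summed to 250 to 510 in SS, 220 to 350 in SM, 235 to 285 in MS and 608 to 9121 in MM, so MM did not overlap the other groups. Of 6 oligodendrocyte markers, 3 were lower in MS, 6 in SM and 4 in MM, and none was higher. Of 6 cortex markers, 4 were lower in MS, 2 in SM and 2 in MM. Of 6 astrocyte markers, 1 was higher in MS, 1 in SM and 2 in MM, and 1 was lower in each. None of 5 microglia markers passed in MS, SM or MM. The part of these shifts in the results for the 3 cholinergic genes was not tested.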

How the data were processed

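Total RNA of the NAc was hybridised by the authors to 1-colour Illumina BeadChips, and they deposited background-subtracted intensities from BeadStudio (version not given), not scaled between arrays, of 22523 probes on 24 arrays. The detection scores deposited by the authors hold 1 minus the detection p-value in another row order than the intensities (Spearman correlation -0.00699 to 2.47e-04 per array), so they were sorted within each array and assigned by rank of intensity. The authors' series matrix of log2 values equals log2 of the intensity, with values under 1 set to 1 (26.1% of them), less each probe's median (largest difference 2.32e-06), and served as an alternative.

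Background correction and quantile normalization were done with neqc (offset 16) of limma 3.58.1 in R 4.3.3. Tests covered the 12943 probes detected (p under 0.05) on 4 or more arrays. The limma fit had 1 mean for each group, used the 24 arrays together and moderated the variances (eBayes), with Benjamini-Hochberg adjustment over all probes tested. MS against SM was added after the design was set, to order the levels. Correlations within groups used 100000 permutations of the arrays within groups. The number of arrays limits the precision.

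The members, pathway lists and marker lists were chosen with earlier results of these data known. The genes named are the members, the 4 named genes most correlated with each, and up to 3 genes of each pathway list with the smallest p in MS against SS. Other genes are said to complete a count. Gene symbols came from the platform annotation, which gives 13793 probes 1 symbol and 8730 none, and promoters from RefSeq (GRCr8), where 4 of the 5 members had an entry. The fit was tested on simulated data. Alternatives were other background corrections, median scaling, series matrix values, detection filters, slide as a block, each slide alone, the compared arrays alone, robust moderation with a variance trend, array weights, the 3 arrays of weight under 0.5 left out, and each array left out. Figures were drawn in Python 3.11.15 with matplotlib 3.10.9.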

Additional observations from a re-analysis of the deposited data

Results flagged for a closer look

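Among 52 group values of 13 genes checked for a lone sample, 1 was set apart. For Ngfr in SM, replicate 2 had a log2 intensity of 6.26 while the other 5 arrays lay between 6.98 and 7.35, a gap of 0.66 of the group's range, above the critical value for 6 samples. Chance alone sets about 1 in 20 such groups apart.

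The interaction, the effect of the second METH injection after METH less that after saline, passed the threshold in the limma fit for 4 of these 13 genes, where 4.16% of all probes had a called interaction above 0 and 3.51% below 0. It was -0.91 for Lhx6 (adjusted p = 3.16e-04), 0.58 for Sort1 (adjusted p = 0.00385), 0.54 for Chrm3 (adjusted p = 0.0199) and 0.63 for Lingo1 (adjusted p = 0.0327). Zic4, which was not among the 13, had -0.69 (adjusted p = 0.0134). These genes were named for their difference between MS and SS, which enters the interaction with the opposite sign, and each interaction runs opposite to that difference. The values are therefore a description and no independent result. The call was lost under 1 of 13 alternatives for Lhx6, 3 for Sort1, 3 for Chrm3 and 5 for Lingo1.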

How the results depend on the processing

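The count of members called in MS against SS (2) was 1 with the series matrix values, 0 on slide 1 alone and 2 to 3 under each other alternative, and 2 to 3 with any array left out. That of SM against SS (0) was 1 with a detection p under 0.01 on 4 arrays, 1 with a detection p under 0.05 on all 24 arrays, 2 on slide 2 alone, 1 with array weights, 1 without the arrays of weight under 0.5, and 0 to 2 with an array left out. A member was called there without SS replicate 1 or 2, SM replicate 2 or 3, MS replicate 1 or 2, or MM replicate 7. That of MM against SS (3) was 0 on slide 1 alone, 2 or 3 otherwise, and 3 with any array left out. MM against SM, MM against MS, MS against SM and the interaction had 0 members called under every alternative run. Of the transcription factors, 2 to 4 were higher in MS than in SS under the alternatives and with single arrays left out. These counts include Gbx2 where it was tested. Of the neurotrophin genes, 0 to 4 were lower under the alternatives. In MS against SS, Slc5a7 lost its call with the series matrix values (1.17, adjusted p = 0.0778) and on slide 1, Ngfr on slide 1, and Slc18a3 gained one with median scaling (0.35, adjusted p = 0.0486). The interaction of Slc18a3, near 0, changed sign on slide 2 alone (0.118), with array weights (0.018), without the arrays of weight under 0.5 (0.107) and with 6 of 24 single arrays left out (range -0.094 to 0.034).

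The correlation of Slc5a7 with Slc18a3 was -0.014 without the 2 farthest arrays, -0.0075 on slide 2 and 0.56 with median scaling, and that with Ngfr was 0.45, -0.027 and 0.42. No paired analysis was possible because the labels number the samples over all groups and no number pairs samples. SS holds 4 arrays, the fewest of any group, and 2 on each slide, which limits every comparison with it.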
